A study of Mus musculus with 4 samples.

Results

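The kinase STK11 (also called LKB1) and the kinase it is best known for activating, AMPK, were examined at the level of their transcripts in whole lungs of mouse embryos at embryonic day (E) 16.5. The genes were taken by symbol, with no measured value in the rule. They were Stk11, the genes of its STRAD partners (Strada, Stradb) and of its MO25 partners (Cab39, Cab39l), and genes of the catalytic α subunits (Prkaa1, Prkaa2) and the regulatory β and γ subunits (Prkab1, Prkab2, Prkag1) of AMPK. All 10 were found among the 22556 genes with an FPKM value, which sets the reads of a gene against its transcript length and the size of the library. All 10 passed the filter on low values, a mean of at least 0.5 FPKM, and were tested.

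Control embryos were Shh-Cre; Stk11F/+, and Shh-Stk11 embryos were Shh-Cre; Stk11F/F, with 2 libraries of each genotype, all from E16.5 lung. Both genotypes thus carried the Cre driver and at least one floxed allele, so that the epithelium of the Controls was heterozygous for Stk11 and not wild type. Shh-Cre is active in the endoderm from which the lung epithelium forms, so the gene stayed intact in mesenchyme, vessels and blood. C57BL/6 is the strain in the labels, but mixed backgrounds are described in the methods. The labels do not say whether a library is from 1 embryo or several, nor give litter or sex.

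As background, STK11 has little activity alone. It becomes active when it is bound by a STRAD protein, a pseudokinase that keeps it in the cytoplasm in an active shape, and by an MO25 protein, a scaffold that stabilizes the pair. The complex phosphorylates the activation loop of AMPK and of related kinases. AMPK is a trimer of one α, one β and one γ subunit. Its γ subunit binds AMP, ADP and ATP, its β subunit binds glycogen and links the other subunits, and the active enzyme shuts down anabolic steps such as fatty acid synthesis when cellular energy is low. In the study, AMPK was at first a candidate for the target through which STK11 acts on ciliated cell differentiation in the airway. AICAR, an activator of the α subunit PRKAA1, changed neither proliferation nor ciliated cell differentiation there, and the study then turned to MARK3. All of this regulation acts on proteins, which RNA sequencing does not measure.

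The libraries corresponded to between 30.8 M and 38.0 M reads, as estimated from the steps between the lowest FPKM values. The estimated reads on the 10 genes ran from 358 for Prkaa2 in Control 2 to 7135 for Cab39 in Control 1, so that counting error in the lowest library was between 1.35% and 5.29% of the value. Over all 13770 genes tested, 313 (2.27%) passed an adjusted p of 0.05 in limma, 178 of them lower (1.29%) and 135 higher (0.980%) in Shh-Stk11 lungs, and the median log2 fold change was -0.05. Shh-Stk11 2 differed in sex from the other libraries, with Xist at 0.239 FPKM against 65.1 FPKM or more elsewhere. The lung marker Nkx2-1 lay between 169.5 and 207 FPKM in every library. In limma 0 of 7 tested markers of lung epithelium passed the threshold (2 had an unadjusted p under 0.05, against 15.2% of all genes tested). Of the 7, 6 had positive log2 fold changes (median of all 7, 0.20). Their summed level was nonetheless lower in both Shh-Stk11 libraries, at 8879 and 13002 FPKM against 18180 and 16576 FPKM, and was mostly Sftpc, a surfactant gene of distal epithelium (log2 fold change -0.76, limma adjusted p 0.447).

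The transcripts of the complex were not present at one level. On the FPKM scale, which is per length and can be compared between genes, Cab39 was the highest of the 10 (mean over all 4 libraries 52.8 FPKM), followed by Prkag1 (45.9), Prkab1 (41.7), Stk11 (36.2), Cab39l (27.9), Prkaa1 (14.6), Stradb (10.8), Strada (10.3), Prkab2 (4.51) and Prkaa2 (1.56). The place of Stk11 depended on genotype, since in Control its mean of 44.7 FPKM was above the 42.6 FPKM of Prkab1. Among the first 5 genes the range over the libraries overlapped with that of the next gene in this order, as did those of Stradb and Strada. The ranges of all other neighbours in the order did not overlap. In every library the STRAD sum was the lowest part of the kinase complex, and the α sum was the lowest part of AMPK, as RNA. Among all genes tested, the means lay between the 11.0 percentile for Prkaa2 and the 87.7 percentile for Cab39.

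**Figure D1:**
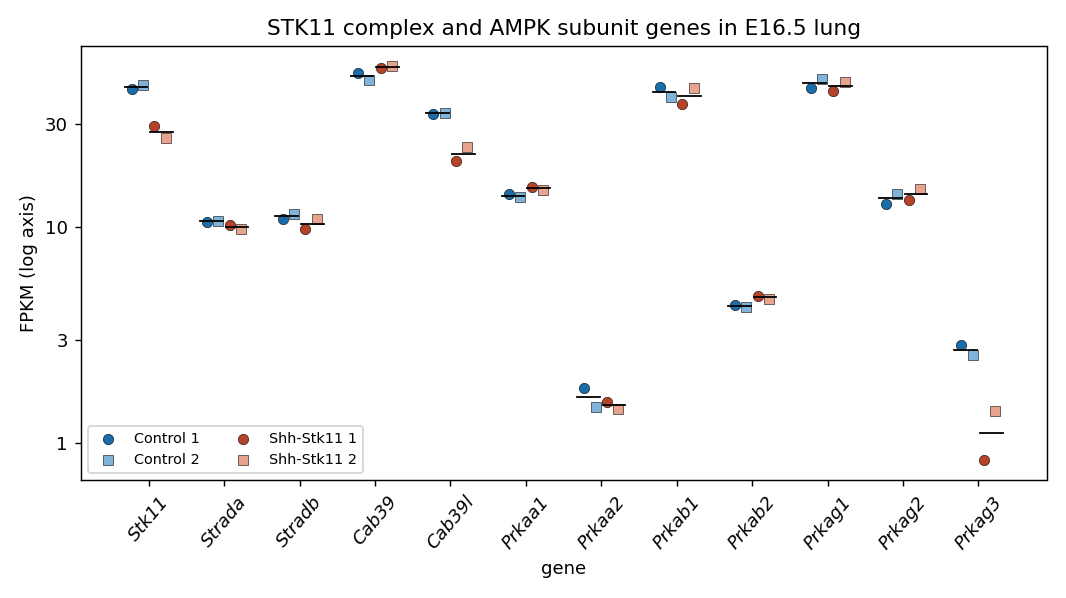
FPKM on a log axis for the 10 genes and for Prkag2 and Prkag3, with one point per library (circles, replicate 1; squares, replicate 2; blue, Control; red, Shh-Stk11) and a short line at the mean of each genotype (n = 2). For Stk11, Cab39l and Prkag3 both Shh-Stk11 points lie well below both Control points, and for the other genes the genotypes lie close together.

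Stk11, the deleted gene, read 44.0 and 45.5 FPKM in Control, against 29.5 and 26.0 FPKM in Shh-Stk11 libraries. Both Shh-Stk11 libraries were thus lower, and each stood at 57.0% to 67.0% of a Control. The mean fell to 27.7 ± 2.49 FPKM, from 44.7 ± 1.07 FPKM in Control (SD, n = 2), a log2 fold change of -0.69 (95% interval -0.99 to -0.39, limma adjusted p 0.0499). By its p-value it was number 313 of the 13770 genes tested, so that it was the last gene to pass the threshold. Because the libraries came from the whole organ, fewer cells of a type and less RNA per cell cannot be told apart, here or below. The exons that Cre removes are not given in the sources used here, and the value of a gene sums reads over all its exons, so that a shortened transcript would still be counted. A stretch of 232 bases, or 5.07% of its annotated exon bases, lies opposite an exon of Cbarp.

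The call of Stk11 was not stable, although its direction was. It was lost in 12 of 16 alternatives, the last of which, a crosswise pairing of the libraries chosen after seeing the data, kept it, with adjusted p-values in limma between 0.0236 and 0.183 over all of them, while the log2 fold change stayed between -0.78 and -0.57. With replicate number as a block the adjusted p was 0.154. Leaving out any one library also ended the call (limma adjusted p 0.113 to 0.183).

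Cab39l, which encodes MO25β, was the only other of the 10 genes with an unadjusted p under 0.05. It read 33.5 and 34.0 FPKM in Control, against 20.4 and 23.6 FPKM in Shh-Stk11 libraries, each of which stood at 59.9% to 70.4% of a Control. The mean was 33.7 ± 0.358 FPKM in Control libraries, against 22.0 ± 2.27 FPKM in Shh-Stk11 libraries (SD, n = 2). The log2 fold change of -0.62 (95% interval -0.93 to -0.31) missed the threshold (limma adjusted p 0.0705, unadjusted 0.0023). It passed in 1 of 16 alternatives, the robust form of eBayes (0.0365, within a range of 0.0365 to 0.311). By p-value Cab39l was number 449 of the genes tested. A stretch of 261 exon bases, or 3.82% of its annotated exon bases, lies opposite an exon of Cdadc1, which was between 17.7 and 21.6 FPKM, and the strand of the reads was not stated.

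The paralogue Cab39, which encodes MO25α, did not share this pattern. It read 52.1 and 48.1 FPKM in Control, against 54.7 and 56.2 FPKM in Shh-Stk11 libraries, with no overlap. The log2 fold change was 0.15 (95% interval -0.14 to 0.43, limma adjusted p 0.618) and ran from 0.089 to 0.222 over the alternatives. The share of Cab39 in the summed MO25 transcripts was accordingly 60.9% and 58.6% in the Controls and 72.9% and 70.4% in the Shh-Stk11 libraries. The groups did not overlap, and the two-sided exact permutation p was 0.333, the smallest that 2 against 2 libraries allow. The MO25 sum itself was 83.9 ± 2.51 FPKM in Control libraries, against 77.4 ± 3.35 FPKM in Shh-Stk11 libraries (SD, n = 2, exact permutation p 0.333).

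Both STRAD genes, whose products bind and activate STK11, were near 10 FPKM in every library. Strada read 10.6 and 10.7 FPKM in Control, against 10.2 and 9.84 FPKM in Shh-Stk11 libraries, which did not overlap but differed by only -0.09 on the log2 scale (95% interval -0.38 to 0.20, limma adjusted p 0.783). Stradb was at 10.9 and 11.6 FPKM against 9.76 and 11.0 FPKM, with overlap (log2 fold change -0.12, limma adjusted p 0.719). The paralogues were nearly equal, with Strada at 47.3% to 51.1% of the STRAD sum. Strada shares 158 exon bases with Ccdc47 on the same strand, 2.84% of its exon bases.

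The balance within the complex was then compared library by library. Stk11 was at 2.04 and 2.05 times the STRAD sum in the Controls and at 1.48 and 1.25 times in the Shh-Stk11 libraries. Relative to the MO25 sum it was at 0.514 and 0.554 in the Controls and at 0.393 and 0.325 in the Shh-Stk11 libraries. Neither ratio overlapped between the genotypes (exact permutation p 0.333 for each), and after the trend with length and GC was taken out the log2 differences of -0.59 and -0.58 became -0.40 and -0.42. The ratio of Stk11 to Cab39l did overlap, at 1.31 and 1.34 in the Controls and 1.45 and 1.10 in the Shh-Stk11 libraries (exact permutation p 1.0).

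**Figure D2:**
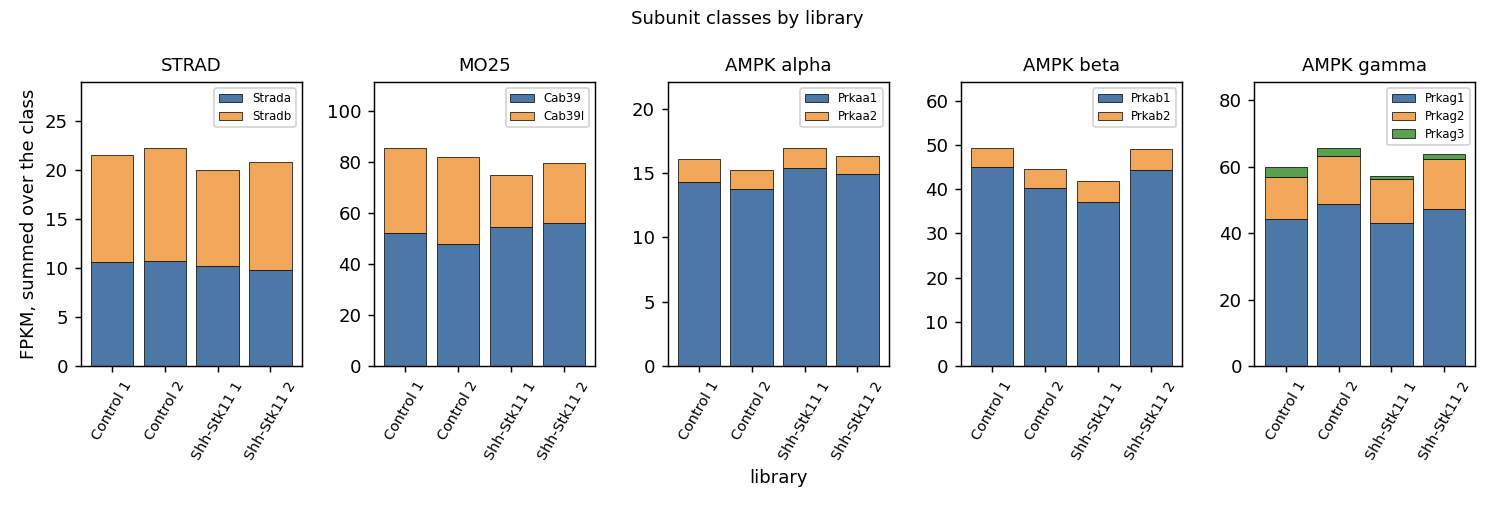
Stacked bars of FPKM from 0, one bar per library, for the STRAD, MO25, AMPK α, AMPK β and AMPK γ classes, with each paralogue as a colour. Within MO25 the Cab39l part is smaller in both Shh-Stk11 libraries, within γ the small Prkag3 part is, and the height of the bars differs little between the genotypes.

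The start regions of Stk11 and Cab39l are shown because these were the genes of the set with the largest differences, and because Cab39l has a pair of annotated starts that a value per gene does not separate. The windows are from RefSeq on GRCm38.p6, on the strand of the gene, and run from 250 bases before to 50 bases after the start. Capitals mark CCAAT boxes (CCAAT, or ATTGG on the other strand) and GC boxes (GGGCGG, or CCGCCC).
Stk11, chr10:80115545-80115844, plus strand: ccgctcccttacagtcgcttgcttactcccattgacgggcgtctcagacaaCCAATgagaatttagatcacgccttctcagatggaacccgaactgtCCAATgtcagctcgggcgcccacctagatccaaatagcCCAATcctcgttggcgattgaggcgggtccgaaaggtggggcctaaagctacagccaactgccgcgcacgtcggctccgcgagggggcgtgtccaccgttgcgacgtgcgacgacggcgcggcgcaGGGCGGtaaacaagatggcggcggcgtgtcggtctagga
Cab39l upstream start, chr14:59440713-59441012, plus strand: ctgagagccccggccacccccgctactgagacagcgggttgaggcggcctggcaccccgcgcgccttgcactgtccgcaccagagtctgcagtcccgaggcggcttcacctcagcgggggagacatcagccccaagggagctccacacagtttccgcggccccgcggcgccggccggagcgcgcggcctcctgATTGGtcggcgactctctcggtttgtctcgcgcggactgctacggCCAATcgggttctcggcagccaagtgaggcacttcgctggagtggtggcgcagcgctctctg
Cab39l downstream start, chr14:59478701-59479000, plus strand: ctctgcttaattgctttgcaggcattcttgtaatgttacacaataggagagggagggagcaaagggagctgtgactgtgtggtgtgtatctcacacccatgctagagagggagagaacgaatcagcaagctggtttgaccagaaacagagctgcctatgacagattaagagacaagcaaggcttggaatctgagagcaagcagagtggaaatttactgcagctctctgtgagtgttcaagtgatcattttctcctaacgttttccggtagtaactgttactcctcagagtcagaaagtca
The Stk11 window held 3 CCAAT boxes and 1 GC box. The upstream Cab39l window held 2 CCAAT boxes and a GC content of 70.0%, and the downstream one held none of the motifs at a GC content of 45.7%. A CCAAT box was found in 3 of the 11 windows of the 10 genes and in 37.4% of all 32851 windows of this length, and a GC box in 7 of the 11 and in 35.7% of all. The cAMP response element TGACGTCA (1.79% of all windows) and the RFX site GTTGCC (12.5% of all windows, GGCAAC on the other strand) were in 0 of the 11 windows. A match of letters is a description and not a binding site.

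Genes of ciliated cells were lower in the same libraries in which Stk11 and Cab39l read lower. The summed level of 8 ciliated cell markers was 88.4 and 96.0 FPKM in Control, against 31.5 and 28.3 FPKM in Shh-Stk11 libraries. Of 7 tested markers, all had negative log2 fold changes, 6 fell past the threshold (1.29% of all genes tested were called lower) and 0 rose, and 0 of the 8 were under 0.1 FPKM in all 4 libraries. Foxj1, the transcription factor of the ciliated program, averaged 15.8 ± 0.522 FPKM in Control and fell to 4.74 ± 0.0357 FPKM in Shh-Stk11 libraries, with a log2 fold change of -1.71 and a limma adjusted p of 0.00329. The 10 tested red blood cell markers were also all lower, 1 of them past the threshold, with a summed level of 12787 and 13234 FPKM in the Controls and 8275 and 9739 FPKM in the Shh-Stk11 libraries. The 6 endothelial and 7 mesenchymal markers had negative log2 fold changes too (medians -0.31 and -0.21), with 0 past the threshold in limma and an unadjusted p under 0.05 for 2 and 3 of them, against 15.2% of all genes tested. The part of these cells in the values of Stk11 and Cab39l was not tested.

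The genes most like Stk11 over the 4 libraries were looked for next. Likeness was the Euclidean distance between log2 values centred on their mean, over 13769 other genes. The nearest named genes were Fam55c, Fam81a, Mycl1, Ccdc114 and Kcnrg, at distances of 0.0912 to 0.0982, and 62 genes lay within 0.2. Ccdc114, a docking protein of ciliary dynein arms, read 2.79 and 2.89 FPKM in Control, against 1.90 and 1.75 FPKM in Shh-Stk11 libraries. None of the 5 passed the threshold (limma adjusted p 0.0636 to 0.165). Of the other members, Cab39l came closest, as number 181 (distance 0.288), whereas Strada followed as number 4018 and Cab39 was number 9727. With 4 libraries such a distance only describes them.

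The catalytic subunit of AMPK was read mostly from Prkaa1. Prkaa1, the more widely expressed α subunit, read 14.3 and 13.7 FPKM in Control, against 15.4 and 14.9 FPKM in Shh-Stk11 libraries. The groups did not overlap, but the log2 fold change was 0.11 (95% interval -0.17 to 0.40, limma adjusted p 0.703), turning to -0.10 after the trend with length and GC was taken out. Prkaa2, the α subunit typical of muscle, was at 1.80 and 1.46 FPKM against 1.55 and 1.43 FPKM, with overlap (log2 fold change -0.12, 95% interval -0.65 to 0.41, limma adjusted p 0.844). Taking out the trend with length and GC moved Prkaa2 to -0.51 (limma adjusted p 0.304). Prkaa1 made up 88.8% and 90.4% of the α sum in the Controls and 90.9% and 91.2% in the Shh-Stk11 libraries (exact permutation p 0.333).

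The β subunits were likewise carried by one gene. Prkab1 read 44.97 and 40.3 FPKM in Control, against 37.1 and 44.3 FPKM in Shh-Stk11 libraries, so that the replicates of one genotype differed more than the genotypes. Its log2 fold change was -0.07 (95% interval -0.41 to 0.27, limma adjusted p 0.858) and was 0.07 after the trend with length and GC was taken out. Prkab2 was at 4.35 and 4.24 FPKM against 4.78 and 4.65 FPKM, without overlap (log2 fold change 0.13, 95% interval -0.21 to 0.47, limma adjusted p 0.716). Prkab1 made up between 88.6% and 91.2% of the β sum in every library.

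Prkag1, the main γ subunit, read 44.1 and 48.8 FPKM in Control, against 43.0 and 47.4 FPKM in Shh-Stk11 libraries. These overlapped, with a log2 fold change of -0.04 (95% interval -0.34 to 0.27, limma adjusted p 0.919) that was 0.03 after quantile normalization, 0.002 with median-ratio scaling and 0.11 after the trend with length and GC was taken out. An annotated antisense RNA covers 43.7% of the exon bases of Prkag1, and with the strand of the reads not stated its reads and those of Prkag1 cannot be told apart. Prkag2 was at 12.9 and 14.3 FPKM against 13.4 and 15.0 FPKM (log2 fold change 0.06, limma adjusted p 0.870). The annotated antisense RNAs Prkag2os2 and Prkag2os1 lie opposite 12.3% and 2.19% of the exon bases of Prkag2.

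Prkag3, the γ subunit known from skeletal muscle, stood apart from the other AMPK genes. It read 2.84 and 2.55 FPKM in Control, against 0.826 and 1.40 FPKM in Shh-Stk11 libraries, both of them lower. The log2 fold change was -1.25 (95% interval -1.91 to -0.58), which did not pass (limma adjusted p 0.0832, unadjusted 0.00342). It passed in 3 of 15 alternatives, with adjusted p-values of 0.0266 to 0.287 over all of them. Its share of the γ sum was 4.74% and 3.89% in the Controls and 1.44% and 2.19% in the Shh-Stk11 libraries (exact permutation p 0.333), and the γ sum itself overlapped between the genotypes, at 62.8 ± 4.15 and 60.5 ± 4.68 FPKM (SD, n = 2). The summed level of 6 skeletal muscle markers was 7.002 and 14.8 FPKM in Control, against 6.93 and 3.83 FPKM in Shh-Stk11 libraries, with Myog and Myh8 under 0.1 FPKM in every library. Ckm, muscle creatine kinase, which heart muscle also expresses, made up most of this sum, with 12.2 FPKM in Control 2. Acta1 was at 0.364 and 0.387 FPKM in Control, against 0.158 and 0.172 FPKM in Shh-Stk11 libraries. Myh3 was at 0.0997 and 0.104 FPKM against 0.0392 and 0.0623 FPKM, both genes without overlap and at few estimated reads. Myh8 did not overlap either but was higher in Shh-Stk11 libraries, and Tnnt3 overlapped. The summed level of 8 heart muscle markers was 129 and 273 FPKM in Control, against 161 and 65.5 FPKM in Shh-Stk11 libraries, with overlap. The part of muscle in the value of Prkag3 was not tested.

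Without Shh-Stk11 2, the library that differed in sex, the log2 fold change was -0.60 for Stk11, -0.725 for Cab39l and -1.59 for Prkag3. Without Shh-Stk11 1 it was -0.78 for Stk11, -0.515 for Cab39l and -0.90 for Prkag3. Each of these fits leaves a single Shh-Stk11 library. With a pseudocount of 1, Prkag3 was at -0.82.

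Over the 10 genes together, 1 passed the threshold and it was lower in Shh-Stk11 lungs, where 1.29% of all genes tested were called lower and 2.27% in either direction. An unadjusted p under 0.05 was reached by 2 of the 10, against 15.2% of all genes tested. In 6 of the 10 the genotypes did not overlap, 3 of them lower and 3 higher, where 46.8% of all genes tested did not overlap. The median log2 fold change was -0.08 against -0.05 over all genes tested. For the 8 genes other than Stk11 and Cab39l, the log2 fold changes lay between -0.12 and 0.15, the adjusted p-values in limma were 0.618 or more, and no 95% interval reached beyond -0.65 or 0.47. With the trend in length and GC taken out, the lowest of these 8 were Prkaa2 at -0.51 and Strada at -0.20, and the highest was Cab39 at 0.13.

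The genes that act on AMPK from outside the complex were compared as a list of 11, all of which were tested. Of these, 1 rose past the threshold (0.980% of all genes tested were called higher), 0 fell and 10 did not pass, with a median log2 fold change of 0.09 and 6 of the 11 without overlap between the genotypes, near the 46.8% of all genes tested. Sesn3, a stress-induced sestrin that favours AMPK activity and restrains mTORC1, rose to 21.7 and 18.0 FPKM in Shh-Stk11 libraries, from 10.8 and 9.39 FPKM in Control. Its log2 fold change was 0.97 (95% interval 0.61 to 1.33, limma adjusted p 0.0335), and the call was lost in 8 of 16 alternatives (limma adjusted p up to 0.167), among them the removal of any one library. After the trend with length and GC was taken out, Sesn3 was at 0.68 and no longer passed (limma adjusted p 0.0511). Its relatives Sesn1 (log2 fold change -0.24, limma adjusted p 0.438) and Sesn2 (0.23, limma adjusted p 0.630) did not pass.

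Folliculin and its partners form complexes that bind AMPK. Flcn had a negative log2 fold change, and Fnip1 and Fnip2 had positive ones. Flcn read 18.8 and 14.1 FPKM in Control, against 11.3 and 11.4 FPKM in Shh-Stk11 libraries (log2 fold change -0.51, limma adjusted p 0.199, and from -0.30 without Control 1 to -0.72 without Control 2). Fnip1 was at 6.22 and 6.71 FPKM against 8.79 and 8.59 FPKM (log2 fold change 0.42, limma adjusted p 0.184). Fnip2 had a log2 fold change of 0.205 with overlap between the genotypes (limma adjusted p 0.646). None of these passed the threshold. Other kinases that can phosphorylate the AMPK activation loop include Camkk2, at 7.60 to 8.56 FPKM over all libraries, and Map3k7 (TAK1), at 23.4 ± 0.00559 FPKM in Control libraries, against 26.1 ± 0.777 FPKM in Shh-Stk11 libraries (SD, n = 2), a log2 fold change of 0.16 with a limma adjusted p of 0.580. Ppm1a, a phosphatase that can remove the mark, was the highest of the list, at 40.0 to 45.9 FPKM with overlap between the genotypes.

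The 7 genes for chaperones and modifiers of STK11 itself had a median log2 fold change of -0.08. Of these, 0 passed the threshold in limma, where 2.27% of all genes tested did. Against 15.2% of all genes tested, an unadjusted p under 0.05 was reached by 1 of them. That gene was Sirt1, a deacetylase that can act on STK11, at 12.3 and 12.1 FPKM in Control, against 15.0 and 15.4 FPKM in Shh-Stk11 libraries (log2 fold change 0.31, 95% interval 0.03 to 0.59, limma adjusted p 0.277). The HSP90 gene Hsp90ab1 was the highest, at 1219 ± 104 FPKM in Control libraries, against 1154 ± 50.9 FPKM in Shh-Stk11 libraries (SD, n = 2, limma adjusted p 0.891). Hsp90aa1, its stress-inducible relative, read 41.6 and 51.4 FPKM in Control, against 62.7 and 41.0 FPKM in Shh-Stk11 libraries, with overlap. Their co-chaperone Cdc37, which brings kinases to HSP90, was at 98.2 and 115 FPKM against 84.3 and 96.2 FPKM (log2 fold change -0.24, limma adjusted p 0.508). Prkcz, a kinase that phosphorylates STK11, had a log2 fold change of -0.26 (limma adjusted p 0.432).

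The 18 genes of AMPK substrates were all tested. Of these, 1 rose past the threshold (0.980% of all genes tested were called higher), 0 fell and 17 did not pass, with a median log2 fold change of -0.04. Ppargc1a, which encodes the mitochondrial co-activator PGC-1α, rose to 7.20 and 7.97 FPKM in Shh-Stk11 libraries, from 2.28 and 1.99 FPKM in Control. Its log2 fold change was 1.78 (95% interval 1.39 to 2.17, limma adjusted p 0.00525). The call was kept in 12 of 15 alternatives and lost with the replicate block (0.0721) and without Control 1 (0.0580) or Control 2 (0.0776), within a range of 0.0012 to 0.0776. Pfkfb2, an enzyme that makes the glycolytic activator fructose-2,6-bisphosphate, was at 16.6 and 12.8 FPKM against 21.9 and 26.6 FPKM, without overlap (log2 fold change 0.72, limma adjusted p 0.102).

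**Figure D3:**
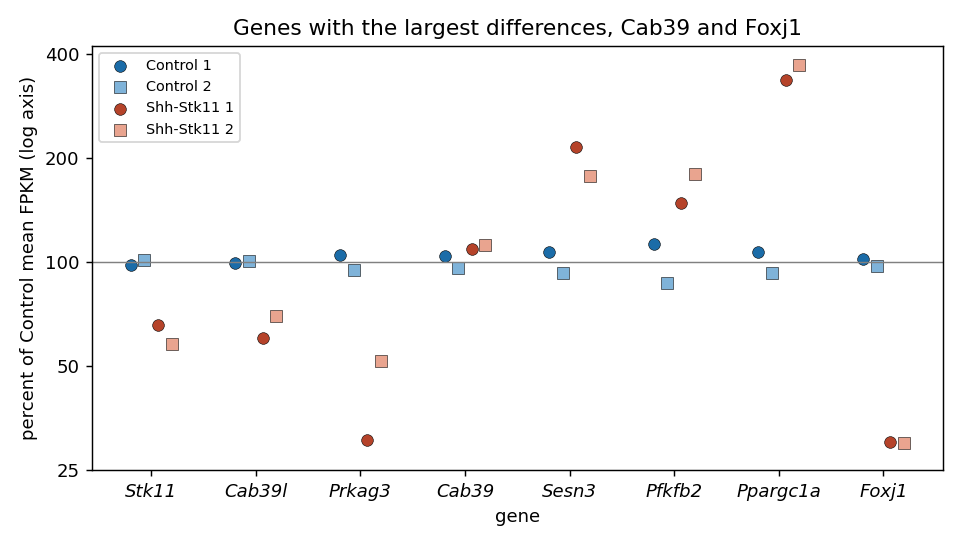
FPKM of each library as a percent of the Control mean, on a log axis, for Stk11, Cab39l, Prkag3, Cab39, Sesn3, Pfkfb2, Ppargc1a and Foxj1, with circles for replicate 1 and squares for replicate 2. The Shh-Stk11 points of Stk11 and Cab39l lie at similar heights below the line at 100, those of Prkag3 and Foxj1 lie lower, and those of Sesn3, Pfkfb2 and Ppargc1a lie above it.

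The other substrates named here did not pass the threshold. Txnip was at 190 ± 39.5 FPKM in Control libraries, against 177 ± 45.1 FPKM in Shh-Stk11 libraries (SD, n = 2, limma adjusted p 0.862), and Mff, a receptor for mitochondrial fission, at 73.2 ± 5.31 and 71.7 ± 8.11 FPKM (limma adjusted p 0.937). Hdac5, a class IIa histone deacetylase, had a log2 fold change of -0.17 (limma adjusted p 0.671). For Txnip and Mff the genotypes differed by less than the replicates of either genotype, and for Hdac5 by less than the Control replicates. The enzymes of lipid synthesis that AMPK inhibits, Acaca and Acacb, had log2 fold changes of 0.31 and -0.05 (limma adjusted p 0.570 and 0.950).

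**Figure D4:**
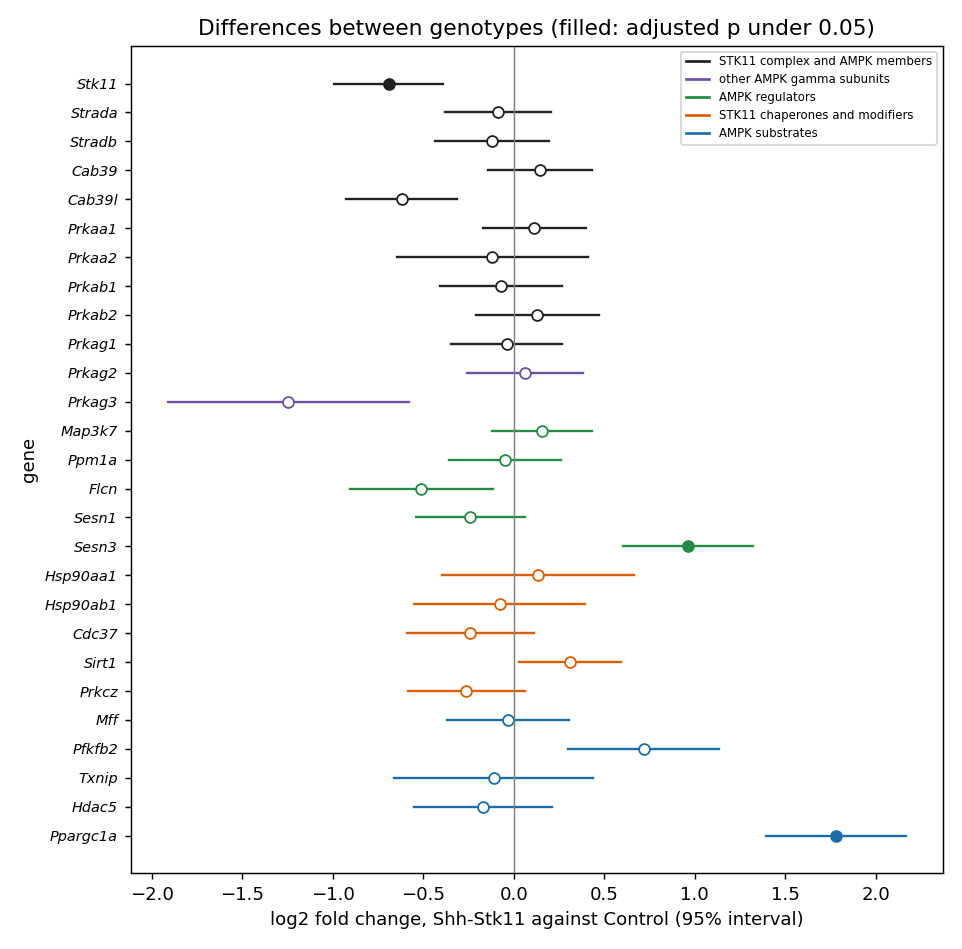
Log2 fold change of Shh-Stk11 against Control with its 95% interval in limma, for the 10 genes (black), the other γ subunits, and 5 genes each of the AMPK regulators, the STK11 chaperones and modifiers and the AMPK substrates, filled where the adjusted p is under 0.05. Stk11, Sesn3 and Ppargc1a are filled, and the intervals of Cab39l, Prkag3, Flcn, Sirt1 and Pfkfb2 leave out 0 while their points are open.

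The length of the transcripts moved with the differences between the libraries. Over the genes tested, the median log2 fold change ran from -0.19 in the shortest to 0.19 in the longest of 10 groups ordered by length. Prkaa2, Prkab2 and Prkaa1 have the longest transcripts of the 10 genes, of 7969, 5006 and 4655 bases, and Prkag1 the shortest, of 1652 bases. Taking out the trend with length and GC content together moved the AMPK α sum from a log2 difference of 0.09 to -0.14 and the γ sum from -0.05 to 0.08, and it left Cab39l at -0.70 and Stk11 at -0.57.

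**Figure D5:**
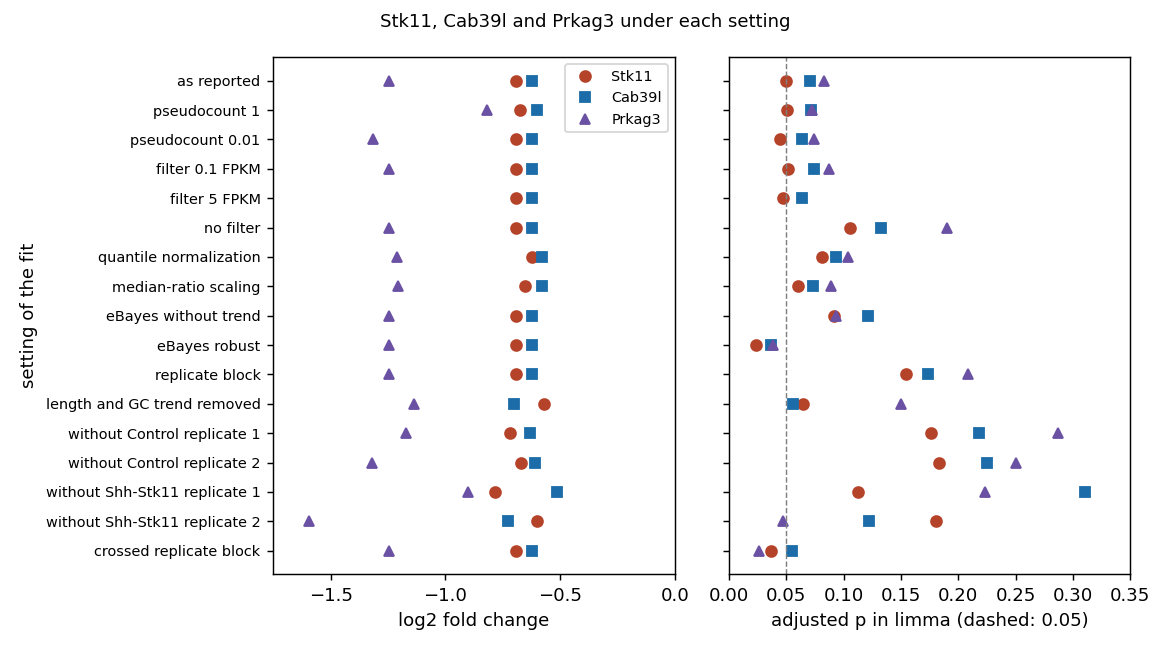
Log2 fold change (left) and adjusted p in limma (right) of Stk11, Cab39l and Prkag3 as reported and under each alternative, with a dashed line at 0.05. The fold changes stay below 0 in every setting that tested the gene, while most of the adjusted p-values lie to the right of the dashed line.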

How the data were processed

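Total RNA of E16.5 lungs was sequenced by the authors as short single-end reads. Per the submitters' processing notes in the labels, TopHat2 2.0.13 and Cufflinks 2.2.1 were used, and the builds GRCm38 and mm9 are both named. The annotation, the strand setting and any scaling between libraries are not given in the sources used here. The authors deposited FPKM per gene, and no count test was used on these values.

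Genes averaging 0.5 FPKM or more were tested on log2(FPKM + 0.1) with limma 3.58.1 in R 4.3.3 (lmFit with genotype, eBayes with trend, 4.48 prior and 2 residual degrees of freedom), two-sided, with Benjamini-Hochberg adjustment over all 13770 genes. Fold changes on this scale understate the change of low genes. The model was tested on simulated data. Class sums, shares and ratios were compared by exact permutation of 2 against 2 libraries. The methods call the replicates biological. The p-values in limma rest on the spread between them, moderated by a variance trend over all genes, and measure no other source of variation.

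Depth was estimated from 1737 genes under 0.3 FPKM, of which 1337 lay at whole multiples of a step within 0.3%. It was scaled by 198 genes with a single GENCODE M21 transcript, less 200 bases. Read estimates per gene assume its longest transcript and cover counting error only.

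Symbols were matched to GENCODE M21 and RefSeq synonyms (20242 genes directly and 1917 by synonym, of 22556), and 113 of 114 list genes were found. All members are named, with Prkag2 and Prkag3. The alternatives were pseudocounts of 1 and 0.01, filters of 0.1 and 5 FPKM or none, quantile and median-ratio scaling, eBayes without trend or robust, a replicate block, removal of the trend with length and GC by loess, leaving out each library and, chosen after seeing the data, a crossed replicate block, which is included in the counts of alternatives. Of each pathway list the text names the genes past the threshold, the 3 highest and the 2 with the largest fold change. The genes nearest to Stk11 leave out predicted and small RNA genes. Fnip1, Fnip2, Sesn2, Camkk2, Acaca, Acacb, Acta1, Myh3 and Tnnt3 were named after their values were seen. Promoter windows are from RefSeq (GRCm38.p6). Members and lists were chosen with earlier results of these data known.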

Additional observations from a re-analysis of the deposited data

How the results depend on the processing

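Every fold change rests on 2 libraries a genotype, and an exact permutation cannot give a p below 0.333. The replicate numbers do not say that libraries share a litter or batch. Libraries with the same number had deviations with a correlation of -0.114.

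Of all genes, 313 passed the threshold, 135 higher and 178 lower in Shh-Stk11 lungs. With genes of at least 5 FPKM these counts were 200 in all and 90 lower. Without a filter they were 61, 20 and 41, with the robust eBayes 587, 303 and 284, with the replicate block 13, 6 and 7, and after the trend with length and GC was taken out 181, 79 and 102. Pairing the libraries crosswise, an alternative chosen after seeing the data, gave 675, 360 and 315. Leaving out one library gave 38 to 191 genes, 15 to 64 higher and 23 to 127 lower.

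Of the 10 members, 1 passed the threshold. With the robust eBayes 2 passed, as Cab39l did there (log2 fold change -0.62, limma adjusted p 0.0365, range 0.0365 to 0.311). In each of the following, 0 of the 10 passed in limma (2 had an unadjusted p under 0.05 in the analysis reported), and Stk11 was at -0.67 with a pseudocount of 1 (limma adjusted p 0.0509), at -0.69 with a filter of 0.1 FPKM (0.0519), without a filter (0.106), without the trend (0.0915) and with the replicate block (0.154), at -0.62 after quantile normalization (0.0815), at -0.65 with median-ratio scaling (0.0608) and at -0.57 after the trend with length and GC was taken out (0.0643). Leaving out one library left 0 to 0 members and Stk11 between -0.78 and -0.60. The cause of these losses was not tested.

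Signs of fold changes near 0 turned. After the trend with length and GC was taken out, Prkaa1 was at -0.101, Prkab1 at 0.071, Prkag1 at 0.109 and Hsp90ab1 at 0.023, while Mff went from -0.033 to -0.282, Ppm1a from -0.048 to -0.318 and Map3k7 from 0.157 to 0.025. After quantile normalization Prkag1 was at 0.03, Hsp90ab1 at 0.19, Mff at 0.055 and Ppm1a at 0.026. With median-ratio scaling Prkag1 was at 0.002 and Mff at 0.008. Leaving out one library gave -0.202 (without Shh-Stk11 2) to -0.035 (without Shh-Stk11 1) for Stradb, -0.353 (without Control 1) to -0.124 (without Control 2) for Cdc37, -0.259 to 0.023 for Prkaa2, -0.197 to 0.058 for Prkab1, -0.112 to 0.034 for Prkag1, -0.022 to 0.144 for Prkag2, -0.172 to 0.437 for Hsp90aa1, -0.165 to 0.009 for Hsp90ab1, -0.149 to 0.083 for Mff, -0.137 to 0.041 for Ppm1a, -0.349 to 0.012 for Hdac5 and -0.373 to 0.152 for Txnip. None of these genes passed the threshold in any alternative.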
